A study of Rattus norvegicus with 77 samples.

Results

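Strbp, Fxr1, Fmr1, Msi1, Msi2, Ybx2, Ddx25, Pabpc1, Cpeb1 and Tarbp2 encode proteins that bind RNA in developing sperm and hold back, release or modify messages for translation. These 10 genes were followed in the sperm RNA of 77 Fischer 344 rats, 1 array per rat. They were chosen by name, with earlier results of these arrays known, and Strbp was among the transcripts that the study itself selected on the difference between its HD and water arrays. Each gene was read from the probe set that carried its symbol alone, and the brightest was taken where there was more than 1. Of the 10 genes, 7 had such a probe set, while Msi2, Ybx2 and Pabpc1 had none, and the whole array gave 14506 genes in this way. Fxr1 and Tarbp2 had 2 probe sets each. The 20 water rats drank water for 3 months, and the 19 HD rats drank 0.33% 2,5-hexanedione (HD), a toxicant of the microtubules of Sertoli cells, the cells that nurse the germ cells. The 18 water-recovery and 20 HD-recovery rats had the same 3 months followed by 3 months on water. Ages are not given in the labels. All sperm came from the cauda epididymides, where sperm are stored, and had passed through a lysis buffer.

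Spermatids stop transcribing while their chromatin is being packed, so the proteins of the late spermatid are made from messages that were stored earlier. Double-stranded RNA-binding proteins, fragile X family proteins, Y-box proteins and the poly(A) tail machinery hold and release those stored messages, and an RNA helicase, Ddx25, moves some of them from the nucleus to the granule where they wait. Mature sperm translate little, and their RNA is mostly what remains of the spermatid's.

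The values were log2 intensities, and the number of arrays limits their precision. Array medians lay between 6.51 and 6.78. Within a group, arrays had median correlations with one another of 0.83 to 0.98, and 10 of the 77 arrays stood more than 3 scaled median absolute deviations under the median of their group: HD replicates 3, 4, 5 and 14, water replicate 20, water-recovery replicates 12 and 15, and HD-recovery replicates 2, 9 and 16. Values are from all arrays, and the main differences and counts of calls are also given without these 10. Of 16 measured sperm and spermatid markers, 14 were above the array's median on every array, among them the protamines Prm1 and Prm2, whereas Izumo1, the egg-binding protein of the sperm head, was above it on 1 array and the kinase gene Tssk1b on 35. Leukocyte markers were also present, with 12 of 23 above the median on every array. Each difference is the mean of the exposed arrays less that of their controls, by label, and its direction is opposite to the one the study gives for its altered transcripts, Strbp included, so groups are called by their labels throughout.

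The 7 measured genes differed in how much they varied from array to array. After group means were removed, Strbp had a standard deviation between arrays of 0.61 on the log2 scale, more than 98.7% of all probe sets, Fxr1 had 0.48 (more than 95.4%) and Ddx25 had 0.40 (more than 90.6%). Fmr1, Msi1 and Tarbp2 had 0.20, 0.18 and 0.18, under the median of 0.21 over all probe sets, and Cpeb1 had 0.13, more than 3.62% of probe sets. Fmr1 and Cpeb1 are among the 25% of probe sets with the lowest mean. A single component of the deviations held 41.9% of the variance of the whole array, and it took 79.5% of the variance of Strbp, 58.2% of that of Tarbp2, 43.3% for Fmr1, 37.8% for Msi1, 24.7% for Fxr1, 15.7% for Ddx25 and 6.54% for Cpeb1. The 10 arrays that stood apart were not balanced on that component. Their scores ran from −0.41 to −0.18 in the HD group and from 0.13 to 0.20 in the HD-recovery group. Those of the water-recovery group were −0.25 and −0.15, and that of water replicate 20 was −0.12. Leaving them out therefore shifts the HD and HD-recovery means along the component in opposite directions. In these bulk samples, fewer cells of a type and less RNA per cell cannot be told apart.

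**Figure D1:**
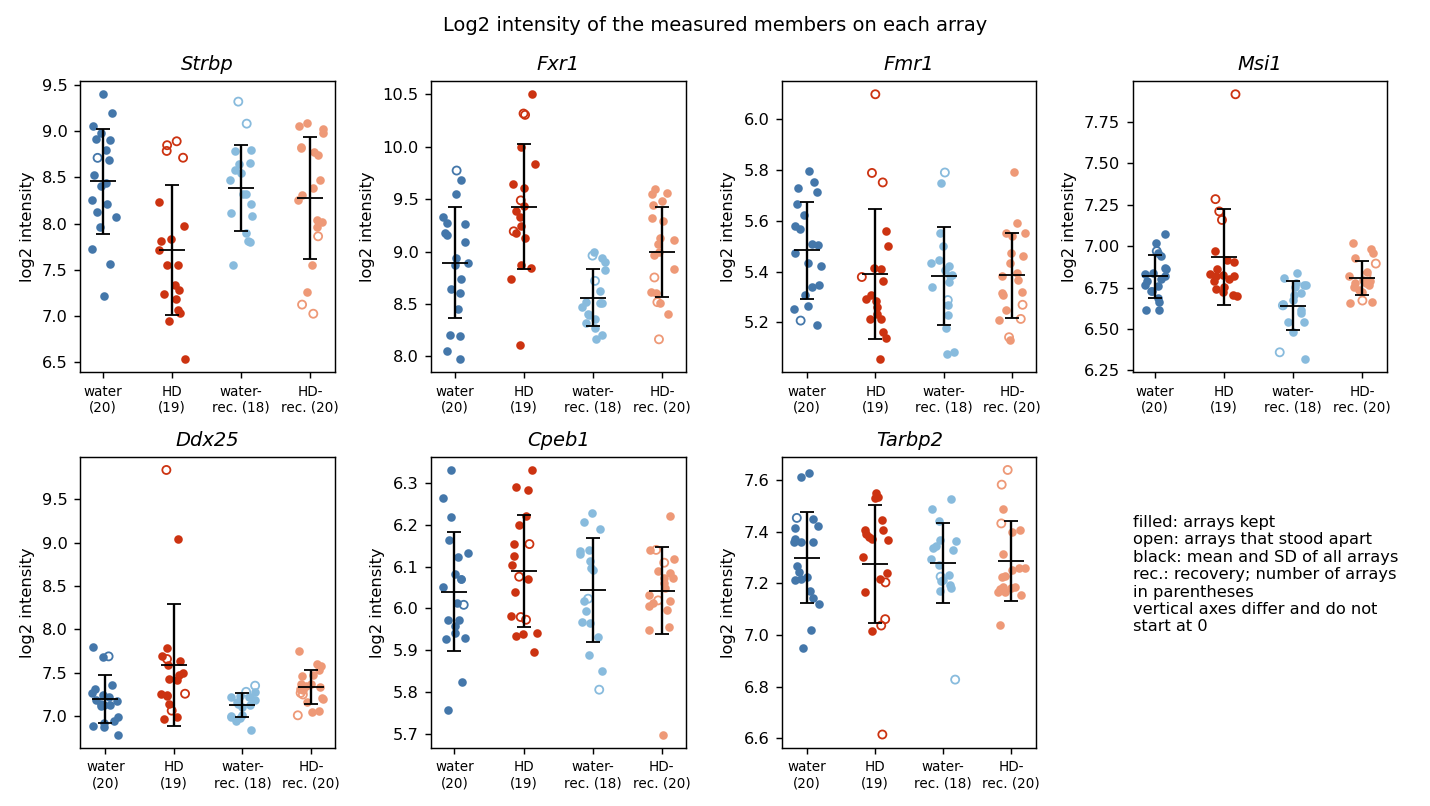
Log2 intensity (vertical axes, which differ and do not start at 0) of the 7 measured genes on each of 77 arrays, by group; open symbols are the 10 arrays that stood apart, and black bars give the mean and SD of all arrays of a group. Strbp was lowest in the HD group and the 4 open HD arrays were among its highest there, and Fxr1 was highest in the HD group. The highest value of Ddx25, Msi1 and Fmr1 is that of 1 open HD array, and 1 filled HD array also lies far above the others for Ddx25.

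Strbp, the spermatid perinuclear RNA-binding protein, carries double-stranded RNA-binding domains and is known from the microtubule sleeve that shapes the spermatid nucleus. On the water arrays its level ran from 7.21 through a median of 8.48 to 9.40, and on the HD arrays from 6.54 through 7.56 to 8.89. The groups overlapped, with 15 of 19 HD arrays under the water median and 5 under the lowest water array. The group means were 8.46 ± 0.57 (SD, n = 20) and 7.71 ± 0.70 (SD, n = 19), a log2 difference of −0.74 (SE 0.20) that is given without a test, since the gene was selected on it. Without the arrays that stood apart the difference was −1.02, and all 4 such HD arrays lay between 8.71 and 8.89. After recovery Strbp ran from 7.55 through 8.40 to 9.32 on the water-recovery arrays and from 7.02 through 8.35 to 9.09 on the HD-recovery arrays. These groups overlapped over most of their range, and the means of 8.39 ± 0.47 (SD, n = 18) and 8.28 ± 0.66 (SD, n = 20) differed by −0.11 (SE 0.18, 95% interval −0.47 to 0.25, limma q = 1.00), and by 0.16 without the arrays that stood apart (q = 0.21). By label, the HD group had the lowest mean of Strbp, and the other 3 groups, between 8.28 and 8.46, lay closer together than 1 SD.

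Fxr1, the autosomal relative of the fragile X protein and an activator of stored messages in late spermatids, ran from 7.98 through 8.92 to 9.77 on the water arrays and from 8.11 through 9.39 to 10.50 on the HD arrays. Of the 19 HD arrays 15 were above the water median and 5 above the highest water array. The means were 8.89 ± 0.53 (SD, n = 20) and 9.43 ± 0.60 (SD, n = 19), a difference of 0.54 (SE 0.17) that did not pass the test with all arrays (p = 0.0035, q = 0.19). Within replicates 1 to 10 and within replicates 11 to 20 it was 0.70 and 0.39. The same direction was found after recovery, with levels from 8.16 through 8.51 to 9.00 on the water-recovery arrays and from 8.16 through 9.04 to 9.60 on the HD-recovery arrays. Here 17 of 20 HD-recovery arrays were above the water-recovery median and 11 above the highest water-recovery array. The difference between the means of 8.56 ± 0.27 (SD, n = 18) and 9.00 ± 0.43 (SD, n = 20) was 0.44 (SE 0.11, p = 0.00043), and it too missed the threshold over all probe sets (q = 0.72). In replicates 1 to 10 it was 0.29, and in replicates 11 to 20 it was 0.59. The water-recovery mean was itself under the water mean (log2 difference −0.33, SE 0.13, limma p = 0.016, q = 0.64). Of the 18 water-recovery arrays 15 lay under the water median, and the HD-recovery mean of 9.00 was near the water mean of 8.89. Time since the start, age and processing cannot be told apart between the water and water-recovery groups. With the arrays that stood apart left out, Fxr1 differed by 0.48 at 3 months (q = 0.023) and by 0.56 after recovery (q = 0.0019). The second Fxr1 probe set was dimmer, at a mean of 7.38 against 8.97. At 3 months it differed in the same direction, by 0.15 (q = 0.45), and by 0.15 without the arrays that stood apart (q = 0.033). After recovery it did not follow the first, with −0.00 (q = 1.00), and −0.06 without those arrays (q = 0.21). Over the 77 arrays its deviations from the group means ran against those of the first (r = −0.40, rho = −0.36). The values for Fxr1 are thus those of its brightest probe set.

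Ddx25, the gonadotropin-regulated testis RNA helicase that spermatids need to complete their development, ran from 6.79 through 7.16 to 7.80 on the water arrays and from 6.97 through 7.43 to 9.84 on the HD arrays, with 15 of 19 HD arrays above the water median and 2 above the highest. Its difference of 0.40 (SE 0.16, q = 0.42) was 0.27 when HD replicate 5 was left out, 0.69 within replicates 1 to 10 and 0.13 within replicates 11 to 20. On HD replicate 5 Ddx25, Msi1 and Fmr1 were at their highest of all 77 arrays (9.84, 7.92 and 6.10) and Tarbp2 at its lowest (6.61), and Izumo1 was at 8.85. The mean of 15 spermatocyte markers on it was 8.07, against at most 6.66 on any other array; the part of other germ cells in its values was not tested. After recovery Ddx25 ran from 6.85 through 7.16 to 7.35 on the water-recovery arrays and from 7.01 through 7.33 to 7.75 on the HD-recovery arrays. Of the 20 HD-recovery arrays 17 lay above the water-recovery median, and the difference was 0.20 (SE 0.06, p = 0.00070, q = 0.72). Without the arrays that stood apart the differences were 0.33 at 3 months (q = 0.026) and 0.26 after recovery (q = 0.0039). That fit at 3 months keeps HD replicate 7, where Ddx25 was at 9.05. Besides HD replicates 5 and 7, its highest value on any array was 7.80, on water replicate 9. A fit without both HD arrays was not run.

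Msi1, Musashi-1, a regulator of translation first known from neural stem cells, had similar means of 6.82 ± 0.13 on water arrays (SD, n = 20) and 6.93 ± 0.29 on HD arrays (SD, n = 19; difference 0.12, q = 0.76), and 0.00 separated the groups without the arrays that stood apart. After recovery it ran from 6.32 through 6.66 to 6.84 on the water-recovery arrays and from 6.66 through 6.79 to 7.02 on the HD-recovery arrays. All but 2 of the 20 HD-recovery arrays lay above the water-recovery median, and the difference was 0.17 (SE 0.04, p = 0.00042, q = 0.72; 0.15 and q = 0.018 without the arrays that stood apart). The water-recovery group was itself the lowest of the 4 for Msi1: its mean of 6.64 ± 0.15 (SD, n = 18) was under that of the water group, killed 3 months earlier (log2 difference −0.18, SE 0.05, p = 0.00056, q = 0.64), and 17 of 18 of its arrays lay under the water median. Time since the start, age and processing cannot be told apart in that comparison.

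Fmr1, the fragile X protein, had means of 5.48, 5.39, 5.38 and 5.38 in the water, HD, water-recovery and HD-recovery groups. Its difference of −0.09 between HD and water arrays (SE 0.07, q = 0.88) was −0.20 without the arrays that stood apart (q = 0.0073), at a level in the lowest 25% of the array. Cpeb1, which binds an element that directs cytoplasmic lengthening of the poly(A) tail, had means between 6.04 and 6.09, and Tarbp2, a partner of Dicer also known to bind protamine messages, had means between 7.28 and 7.30. With all arrays neither differed by more than 0.05 between exposed and control arrays, and the 95% intervals of these differences lay within −0.16 and 0.14 in both comparisons. With the 10 arrays left out, Cpeb1 differed by 0.06 at 3 months, and Tarbp2 by 0.06 at 3 months and −0.07 after recovery, both with the sign turned. The second probe set of Tarbp2, at a mean of 7.23 against 7.29, differed by 0.05 and −0.01 in the same comparisons (r with the first 0.42 over 77 arrays).

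**Figure D2:**
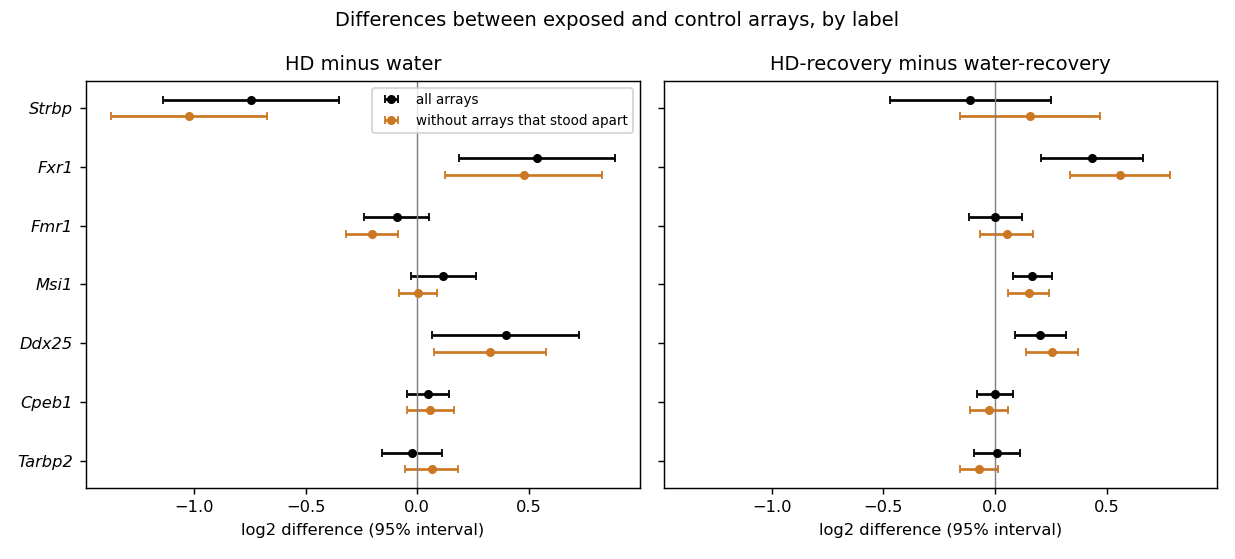
Log2 difference (horizontal axis) with its 95% interval for each measured gene, HD minus water on the left and HD-recovery minus water-recovery on the right; black gives all arrays and orange the fit without the 10 arrays that stood apart. The intervals of Fxr1 and Ddx25 lie above 0 in both panels, that of Msi1 only on the right, and that of Strbp, which was selected on the left comparison, lies below 0 there and spans 0 on the right.

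With all arrays, none of the tested members passed a q under 0.05 in any of the 5 comparisons made by limma. HD against water called 0.472% of all 29214 probe sets and 0 of the 6 members tested. At an unadjusted p under 0.05 there were 2 of the 6, and 8.30% of all probe sets. The recovery comparison called 0% of probe sets and 0 of 7 members, with 3 members and 4.51% of probe sets at an unadjusted p under 0.05. Water-recovery against water called 0% and 0 of 7, with 2 members and 6.52% at that p, and HD-recovery against HD 0.0308% and 0 of 6, with 1 member and 7.55%. The test of whether the difference by label changed with recovery called 0% and 0 of 6, with 0 members and 3.38% at that p. Without the arrays that stood apart the calls rose over the whole array, so the members' counts have to be read against much higher shares. The arrays left out were also unbalanced between groups on the largest component, so differences and calls in this setting partly reflect which arrays were dropped. In that setting HD against water called 30.2% of probe sets and 3 of 6 members (Fxr1 and Ddx25 higher, Fmr1 lower), the recovery comparison 13.1% and 3 of 7 (Fxr1, Msi1 and Ddx25, all higher), and water-recovery against water 0% and 0 of 7. HD-recovery against HD called 57.9% of probe sets and 2 of 6 members (Fmr1 higher, Tarbp2 lower), and the change of the difference with recovery 56.8% and 3 of 6 (Fmr1 and Msi1 upward, Tarbp2 downward). The q-values there multiply the Benjamini-Hochberg value by an estimated share of unaltered probe sets, which was 37.6% for HD against water and 41.6% for recovery. For HD-recovery against HD and the change with recovery it was 28.4% and 29.2%, and q could fall under p. These 2 comparisons called 16922 and 16591 probe sets, while 14053 and 13886 had an unadjusted p under 0.05. Tarbp2 was called for the change with recovery at q = 0.036, with an unadjusted limma p of 0.061. On Benjamini-Hochberg values the call at 3 months was Fmr1 (0.019; 13.5% of all probe sets), and after recovery they were Fxr1, Msi1 and Ddx25 (0.0046, 0.044 and 0.0093; 4.80% of all probe sets). HD-recovery against HD had 0 members and 10604 of the 29214 probe sets called, and for the change of the difference with recovery Fmr1 and Msi1 passed (0.015 and 0.045) among 9765 probe sets. From HD to HD-recovery arrays, which share the HD arrays with the first comparison, Strbp differed by 0.57 (no test, for the same reason) and Fxr1 by −0.43 (SE 0.16, q = 0.44).

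Each of the 3 variable genes followed a marker list from array to array. Across the 77 arrays, with group means removed, Fxr1 tracked the mean of the 16 sperm and spermatid markers (Pearson r = 0.89, Spearman rho = 0.91, permutation p = 1e-05, the smallest that the permutations can give, adjusted p = 2.7e-05 over 35 relations). Within the water, HD, water-recovery and HD-recovery groups the r was 0.94, 0.89, 0.79 and 0.87, and it was 0.88 without the 2 arrays farthest from the median. All 16 markers correlated positively with Fxr1, from 0.22 for Tssk1b to 0.93 for Akap4, the scaffold of the fibrous sheath of the tail. The second Fxr1 probe set ran against the same marker mean (r = −0.55), so these relations are those of the brightest probe set alone. Ddx25 followed the same mean (r = 0.73, rho = 0.67, permutation adjusted p = 2.7e-05, 0.67 without 2 arrays). Its r with single markers ran from 0.03 for Odf1 to 0.91 for Acr, the acrosomal protease. That marker mean lay between 8.68 and 10.02 on the water arrays, 8.80 and 10.93 on the HD arrays, 8.95 and 9.72 on the water-recovery arrays and 8.84 and 9.98 on the HD-recovery arrays. Its group means of 9.38, 9.57, 9.25 and 9.43 had the same order as those of Fxr1 with all arrays. When the arrays that stood apart were left out the orders differed: the marker mean was highest in the HD-recovery group (9.53, against 9.46 in the HD group), and Fxr1 in the HD group (9.32 against 9.09). The markers did not move as one: between HD and water arrays 11 differences were positive and 5 negative. With all arrays 1 marker was called lower and 0 higher, against 0.472% of all probe sets. Without the 10 arrays 5 were higher and 5 lower, where 30.2% of all probe sets were called. With the marker mean as a covariate, an alternative chosen after seeing the data, Fxr1 differed by 0.30 at 3 months (q = 0.0083) and by 0.24 after recovery (q = 0.89), and Ddx25 by 0.21 and 0.14.

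Strbp moved with the mean of the leukocyte markers (r = 0.80, rho = 0.81, permutation adjusted p = 2.7e-05, 0.78 without 2 arrays), with r of 0.92, 0.77, 0.64 and 0.91 in the 4 groups in the same order, and with the erythroid markers (r = 0.70). Of the single leukocyte markers 18 of 23 correlated positively with Strbp, from −0.59 for Ms4a1 to 0.84 for Laptm5. Its r with the sperm and spermatid marker mean was 0.55, and 15 of those 16 markers correlated positively with it, up to 0.93 for Zpbp, a protein of the acrosome. Between HD and water arrays, 3 of the 23 measured leukocyte markers passed the test and were lower (Cd4, Fcer1g and Lyz2), 0 were higher and 20 did not pass, against 0.472% called over all probe sets, and 19 of 23 differences were negative. Leaving out the 10 arrays, 15 of the 23 were lower and 0 higher, against 30.2% called over all probe sets. All 3 are on the study's own list from these arrays, so they are not independent evidence of the direction. The array mean of the list lay between 7.23 and 8.06 on water arrays, 7.12 and 8.05 on HD arrays, 7.23 and 8.41 on water-recovery arrays and 7.09 and 8.29 on HD-recovery arrays. With this mean as a covariate the Strbp difference between HD and water arrays was −0.10 in place of −0.74, and that of Fxr1 was 0.68 (q = 0.036). With the sperm and spermatid mean as the covariate, the Strbp difference was −0.90. The leukocyte mean itself differed by label, at 7.68 on water and 7.39 on HD arrays, and its part in the Strbp difference was not tested. Of the erythroid markers 5 were measured, and 1 was lower and 0 were higher at 3 months (3 lower without the arrays that stood apart). Tarbp2 ran against the leukocyte mean (r = −0.60, rho = −0.67, permutation adjusted p = 2.7e-05).

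**Figure D3:**
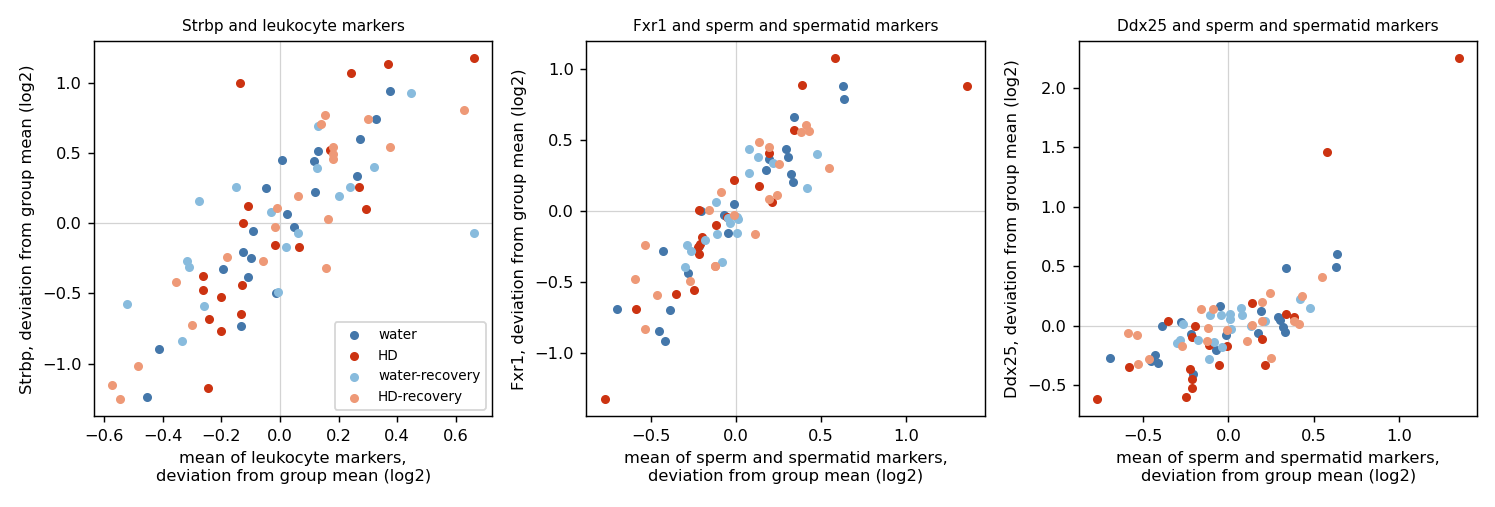
Deviation of a gene from its group mean (vertical, log2) against the deviation of a marker mean (horizontal, log2) on each of 77 arrays, coloured by group: Strbp with the leukocyte markers (r = 0.80), Fxr1 with the sperm and spermatid markers (r = 0.89) and Ddx25 with the same (r = 0.73). The 4 groups share 1 band in each panel, and 2 HD arrays, replicates 5 and 7, lie far above the others for Ddx25. Fxr1 is shown by its brightest probe set, and the second ran against the same markers (r = −0.55).

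Among themselves the 7 genes formed 21 pairs, and 10 pairs passed an adjusted permutation p of 0.05, 6 positive and 4 negative. The highest r was that of Fxr1 and Ddx25 (0.62, rho = 0.63, permutation adjusted p = 4.2e-05, 0.55 without the 2 arrays farthest from the median). It kept 0.66 without the arrays that stood apart and 0.53 with the first component removed. Strbp correlated positively with Fmr1 (0.58), Msi1 (0.51) and Fxr1 (0.36) and negatively with Tarbp2 (−0.68), the lowest of the 21. These relations of Strbp were within the first component: with it removed they were −0.03, −0.11, −0.20 and 0.01, and Strbp and Ddx25, at 0.13 before, had an r of −0.54 (permutation adjusted p = 0.00042). For that pair rho was −0.39, and r was −0.40 without 2 arrays. By group its r ran from −0.72 in HD to −0.08 in water-recovery. The component had held 79.5% of the variance of Strbp, so these values describe the small part left. The r of Msi1 and Ddx25, 0.46, rested on 2 arrays and was 0.11 without them. Cpeb1 had 1 pair that passed, with Fxr1 (−0.35), which did not pass with centred medians (r = −0.17, permutation adjusted p = 0.19) or with the first component removed (r = −0.27, permutation adjusted p = 0.11).

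**Figure D4:**
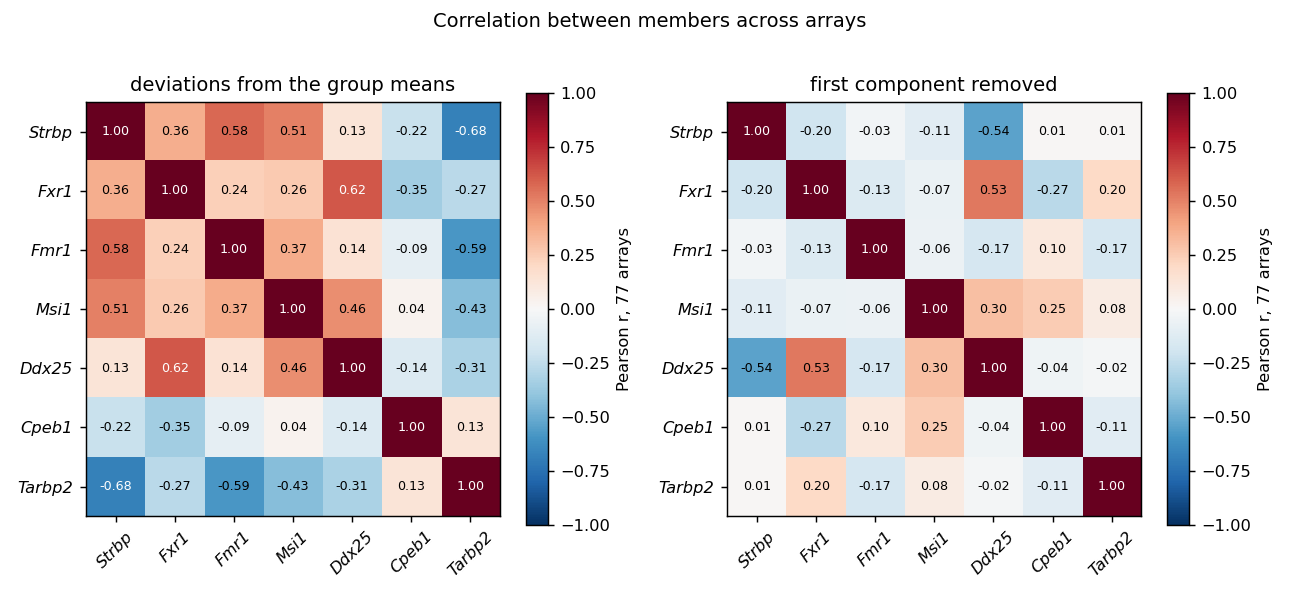
Pearson correlation between the 7 measured genes over 77 arrays (colour and number), for deviations from the group means on the left and with the first component removed on the right. The pair Fxr1 and Ddx25 is at 0.62 and 0.53, while the relations of Strbp with Fmr1, Msi1 and Tarbp2 are near 0 on the right.

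Since Fxr1 and Ddx25 varied together, their promoter windows are shown, from 250 bases before to 50 bases after the start in the RefSeq table of the GRCr8 assembly, 5′ to 3′ on the strand of the gene. Capitals mark matches to TGACG, a part of the cAMP response element TGACGTCA, or ATTGG, the core of the Y-box that Ybx2 and NF-Y are known to bind. Both strands were searched, and TGACG also lies within TGACGTCA.
Fxr1, chr2:118812229-118812528, plus strand: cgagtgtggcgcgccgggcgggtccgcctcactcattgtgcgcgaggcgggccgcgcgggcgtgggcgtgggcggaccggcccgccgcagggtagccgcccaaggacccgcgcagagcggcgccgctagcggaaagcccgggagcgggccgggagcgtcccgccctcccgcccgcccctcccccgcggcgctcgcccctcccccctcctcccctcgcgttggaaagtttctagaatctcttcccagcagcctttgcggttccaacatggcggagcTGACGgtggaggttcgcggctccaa
Ddx25, chr8:42168031-42168330, minus strand: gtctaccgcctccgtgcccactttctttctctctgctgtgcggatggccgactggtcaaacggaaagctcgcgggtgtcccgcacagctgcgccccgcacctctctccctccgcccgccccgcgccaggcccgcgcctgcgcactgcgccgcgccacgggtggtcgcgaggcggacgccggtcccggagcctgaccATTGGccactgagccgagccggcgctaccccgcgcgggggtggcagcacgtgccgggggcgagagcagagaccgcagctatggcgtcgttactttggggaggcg
Both windows were rich in G and C, at 75.0% and 72.7%, with 43 and 40 CpG dinucleotides against medians of 51.7% and 7 over 33469 rat promoters of the same length. The Fxr1 window held 1 TGACG, 25 bases past the start and shortly after an ATG of the printed sequence, and the Ddx25 window 1 ATTGG, 54 bases before it, and neither held the other motif or TGACGTCA. Of all promoters 21.2% held TGACG, 37.5% ATTGG and 1.83% TGACGTCA. The windows of Fmr1, Cpeb1 and Tarbp2 had 68.7%, 71.3% and 67.3% G and C. That of Strbp had 31.0% and 2 CpG. The starts of Strbp, Fxr1, Ddx25, Fmr1 and Cpeb1 in this table all lie inside the annotated gene, that of Strbp the farthest.

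The single genes most like Strbp, by Pearson r of the deviations over 77 arrays, were Tax1bp1 (0.96), Stau2 (0.96), Abi2 (0.96), Gpat4 (0.95) and Ubn2 (0.95). Stau2 is another double-stranded RNA-binding protein that carries messages along microtubules, and Tax1bp1 is an autophagy receptor. Such likeness was common, since 6.05% of all single-symbol probe sets had an r over 0.8 with Strbp, against 0.986% for Fxr1 and 1.20% for Ddx25. The nearest gene to Fxr1 was Stat4 (0.94), a transcription factor also made in spermatids, and the nearest to Ddx25 was Ribc2 (0.94), a protein of the flagellar microtubules. Both held with the first component removed, at 0.93 and 0.93, while by rank Ddx25 and Ribc2 were less alike (rho = 0.78). Fmr1 was nearest to Tlk1 (0.80), Tarbp2 to Tnr (0.80), Msi1 to Xpnpep1 (0.76) and Cpeb1 to Extl2 (0.53). In the same order they were 0.62, 0.43, 0.58 and 0.49 with the first component removed. Without the arrays that stood apart they were 0.69, 0.69, 0.42 and 0.51.

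With all arrays, the 6 lists of related genes gave 2 calls between HD and water arrays and 0 after recovery, against 0.472% and 0% of all probe sets. Of 28 measured genes of germ cell message storage and RNA granules, 1 was lower, Upf2, a factor of nonsense-mediated decay (log2 difference −0.62, SE 0.15, q = 0.041), 0 were higher, and the median difference was −0.01 against 0.01 over all probe sets. Leaving out the 10 arrays, 13 of the 28 were lower and 0 higher at 3 months, with a median of −0.16, where 30.2% of all probe sets were called, and 4 were higher and 0 lower after recovery. Of 23 stored and translated spermatid messages, 1 was lower, Odf1, a sperm tail protein (−0.22, SE 0.05, q = 0.044), while the median of the list was 0.08 and 16 of 23 differences were positive. After recovery 17 of those 23 were positive, with a median of 0.17 against −0.01 over all probe sets, and 0 passed with all arrays. From water to water-recovery arrays 20 of the 23 were negative (median −0.16), and these comparisons share the water-recovery arrays. With the 10 arrays left out, 4 of the 23 were higher and 6 lower at 3 months, and 12 were higher and 0 lower after recovery, where 13.1% of all probe sets were called. The other 4 lists had no call in either comparison with all arrays. Of 14 measured double-stranded RNA-binding genes, Stau2 had the smallest p on the lower side (−0.60, q = 0.13) and Adad1, a testis nuclear protein, on the higher (0.29, q = 0.40). Of 10 partners of the fragile X family, the values were −0.19 for Usp10 and 0.23 for Atxn2l. Of 17 genes of the poly(A) tail machinery, Papolb, the testis poly(A) polymerase, was at 0.48 (q = 0.37) and Tent2 at −0.18. Of 21 poly(A)-binding and initiation genes, Pabpc2 was at 0.72 (SE 0.24, q = 0.21) and Eif4ebp2, a repressor of cap-dependent initiation, at −0.12. In the fit that left out the 10 arrays, the higher and lower calls at 3 months were 2 and 5 for the double-stranded RNA-binding genes, 0 and 4 for the partners of the fragile X family, 1 and 7 for the poly(A) tail machinery and 1 and 4 for the poly(A)-binding and initiation genes. After recovery these lists had 0, 4, 1 and 8 higher calls and 0 lower ones. For the last list, with all arrays, 18 of 21 differences were positive after recovery (median 0.10) and 18 of 21 were negative from water to water-recovery arrays (median −0.14), comparisons that share the water-recovery arrays.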

How the data were processed

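RNA of cauda epididymal sperm was hybridized to Affymetrix Rat Gene 1.0 ST arrays, 1 array per rat. The deposited values, taken as log2 intensities from their range, are 1 for each of 29214 probe sets on each array, normalized by the authors with published methods, their steps not given in the sources used here. The authors used limma, per the labels. Platform annotation named 1 gene symbol for 15310 probe sets, several for 323 and none for 13581; all were tested.

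Each exposed group was fitted against its own control with limma 3.58.1 in R 4.3.3, q-values were computed by Storey's method over all probe sets, and q under 0.05 was called. On simulated data the fits were tested for known changes. Correlations used deviations from group means, with 100000 permutations within groups (Python 3.11.15, numpy 2.4.6, scipy 1.17.1). Arrays stood apart when their median correlation with their group was over 3 scaled median absolute deviations below the group's median. Replicates are separate rats, per the labels. Promoters came from RefSeq.

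The members and lists were chosen with earlier results of these data known. Genes named are all members, every gene of a list past the threshold (at most 3 with the smallest p) and otherwise the smallest p of each direction, and the most correlated genes. Alternatives were scaling, filters, adjustment, array weights, the first component, arrays that stood apart, replicate number and set, marker means, probe sets of a gene and single arrays left out.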

Additional observations from a re-analysis of the deposited data

How the results depend on the processing

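Members called, 0 with all arrays in every comparison, stayed at 0 without each array in turn (lowest 0, highest 0 in all 5 comparisons) and under centred medians, quantile normalization and Benjamini-Hochberg adjustment. For HD against water and for recovery, the pair of comparisons where these were run, it also stayed at 0 in a single fit of the 4 groups, with the replicate set as a covariate and in each set alone. Between HD and water arrays the count was 3 with array weights, 3 without the arrays that stood apart (1 there with Benjamini-Hochberg), 1 with the first component, 1 with the leukocyte mean, 1 with the sperm and spermatid mean and 1 with the mean of a gene's probe sets, and Fxr1 was the call in the last 4. The last averaged 2 Fxr1 probe sets that ran against each other across arrays (r = −0.40), and its difference was 0.34 in place of 0.54. The first component was computed from deviations from the group means, so as a covariate it could not change any difference. Fxr1 stayed at 0.54 with it, and only the residual spread, and with it q, was altered. After recovery the count was 3 with array weights, 3 without the arrays that stood apart (3 with Benjamini-Hochberg) and 3 with the leukocyte mean. Without the arrays that stood apart it was 2 for HD-recovery against HD, and 3 for the change of the difference with recovery (2 with Benjamini-Hochberg). The causes were not tested. Calls over all probe sets for HD against water, 138 in all, were 63 with centred medians, 352 with quantile normalization, 183 without the dimmest 25%, 5178 with array weights, 1433 with the first component, 221 in the fit of 4 groups, 40 for replicates 1 to 10, 0 for replicates 11 to 20, 913 with the leukocyte mean, 1548 with the sperm and spermatid mean and, leaving out the arrays that stood apart, 8818 (3954 with Benjamini-Hochberg). After recovery, from 0, they were 527 with array weights, 60 with the first component, 498 with the leukocyte mean and, leaving out the arrays that stood apart, 3834 (1402 with Benjamini-Hochberg).

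Reversed signs were of differences near 0. For HD minus water, Tarbp2 was 0.064 without the arrays that stood apart and, by setting, 0.041 with array weights, 0.012 with the mean of its probe sets and 0.020 with the sperm and spermatid mean, and Fmr1 was 0.0097 with the leukocyte mean. After recovery Strbp was 0.050 with array weights, 0.16 without the arrays that stood apart, 0.059 in replicates 11 to 20 and 0.016 with the leukocyte mean. Tarbp2 was −0.030 with array weights, −0.070 without the arrays that stood apart, −0.027 in replicates 11 to 20, −0.020 with the leukocyte mean and −0.0014 with the mean of its probe sets. Cpeb1 was 0.0044 with centred medians, 0.0067 with quantile normalization, 0.039 in replicates 11 to 20 and 0.029 with the sperm and spermatid mean, and Fmr1 −0.017 in replicates 1 to 10 and −0.038 with the sperm and spermatid mean.

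Samples with the same replicate number deviated together in no regular way (r from −0.58 to 0.65 for HD and water, over 0.1 in 8 of 19 pairs, 2 arrays closest to their own number), so the numbers were not taken as pairs. With the replicate block 0 members were called in both comparisons, 156 probe sets in place of 138 for HD against water, and Fmr1 after recovery turned to −0.0029.

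Of 21 member pairs, 10 passed, 2 with the first component removed, 11 with centred medians and 6 when the arrays that stood apart were left out. With the component removed, the r of Strbp was −0.20 with Fxr1, −0.028 with Fmr1, −0.11 with Msi1, −0.54 with Ddx25, 0.013 with Cpeb1 and 0.0084 with Tarbp2; with centred medians it was 0.050 with Cpeb1, and with those arrays left out −0.040 with Ddx25 and 0.20 with Fxr1.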
